A study of Homo sapiens with 3 samples.

Results

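The LY6 and uPAR domain surface genes are a family of small cell-surface and secreted proteins, and 10 of them were followed here among the 58037 genes of the count table: LY6D, LY6E, LY6K, LYPD2, LYPD3, PSCA, SLURP1, PLAUR, CD59 and LY6G6C. They were picked by name, as members of the family, and found through the identifier of each row. Bulk RNA had been sequenced from RWPE1, an immortalized line of normal adult human prostate epithelium, in 3 libraries, 1 per condition. Of these, 1 was OLFM4-wild, 1 OLFM4-knockout and 1 carried the label OLFM4-active. The study describes RNA taken from RWPE1 cells sorted for green fluorescent protein (GFP). By the methods of the study, stable puromycin-resistant GFP reporter lines of OLFM4-wild and OLFM4-knockout cells were made by transfecting RWPE1 cells with CRISPR plasmids, activation plasmids for the former and paired nickases for the latter, all aimed at OLFM4. No separate account of the cells labelled OLFM4-active is given in the sources used here. These sources also do not say whether the OLFM4-wild library came from the reporter line made with activation plasmids. Its column is headed Control. OLFM4 encodes olfactomedin 4, a secreted glycoprotein that marks stem-like cells in several epithelia. The lines were described as cell clones, so a difference between libraries cannot be told apart from a difference between clones. There were no replicates, so no test between conditions could be made, and every interval given here is an exact 95% interval on read counts that covers counting error only.

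The LU domain, named after LY6 and the urokinase receptor, is a compact fold of fingerlike loops held together by disulfide bonds. Most family members are tied to the outer face of the plasma membrane by a glycosylphosphatidylinositol (GPI) anchor, which is added in the endoplasmic reticulum, while SLURP1 is secreted. The family is known for cell adhesion, control of proteolysis and complement at the cell surface, and modulation of nicotinic acetylcholine receptors, and several members are used as markers of prostate and other stratified epithelia.

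OLFM4 itself, on chromosome 13 from 53028813 to 53052057, was checked before the family. OLFM4-wild cells gave 214 counts of it, OLFM4-knockout cells 131 and the library labelled OLFM4-active 16, or 11.8, 2.55 and 0.670 CPM, counts relative to library size. The lowest level was therefore found under the label that names activation, and that library is called the library labelled OLFM4-active throughout. Totals were 16309906 counts for OLFM4-wild, 58837147 for OLFM4-knockout and 23224216 for the library labelled OLFM4-active. In the same order, 3 counts, taken as the floor of detection, equal 0.165, 0.0584 and 0.126 CPM. CPM were taken over library sizes scaled with TMM, a method that centres the bulk of genes between libraries. Relative to plain library totals, TMM raised log2 fold changes by 0.35 in OLFM4-knockout against OLFM4-wild, by 0.11 against OLFM4-wild in the library labelled OLFM4-active, and by 0.24 between the last 2 libraries. The basal epithelial markers KRT5 and KRT14 were high in all 3 libraries, with summed levels of the 6 basal markers of 18750.5 CPM in OLFM4-wild, 41146 in OLFM4-knockout and 22727 in the library labelled OLFM4-active. Luminal prostate markers summed to between 308 and 468 CPM, nearly all of it from the keratin genes KRT8 and KRT18, and KLK2 was at 0. Fibroblast and muscle markers summed to between 35.9 and 58.1 CPM, with COL3A1, DES and LUM at 0. Leukocyte markers summed to between 20.0 and 31.5 CPM, nearly all of it from CD68, with CD3D, CD3E, LYZ and MS4A1 at 0. Endothelial and neuroendocrine markers summed to no more than 1.98 CPM, with CDH5 and INSM1 among those at 0.

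The 10 genes lie at 4 places in GRCh38, and 6 of them share a stretch of chromosome 8. From the lower coordinate upwards these are PSCA (142670308 to 142682725, plus strand), LY6K (142700111 to 142705127, plus), SLURP1 (142740949 to 142742406, minus), LYPD2 (142750150 to 142752532, minus), LY6D (142784882 to 142786539, minus) and LY6E (143017982 to 143023832, plus). Both LYPD3 (43460787 to 43465608) and PLAUR (43646095 to 43670547) lie on the minus strand of chromosome 19. CD59 lies on the minus strand of chromosome 11 from 33703010 to 33736479, and LY6G6C on the minus strand of chromosome 6 from 31718648 to 31721746. The reference transcripts of 8 of the 10 have 3 coding exons and code for between 103 residues in SLURP1 and 165 in LY6K. LYPD3, with 5 coding exons and 346 residues, and PLAUR, with 7 coding exons and 335 residues, carry repeats of the domain. In all 10 genes each intron within the coding sequence falls after the first base of a codon (phase 1), 26 of 26 introns. Across the reference transcripts of all protein-coding genes in GENCODE version 44, 32.4% of 171839 coding introns were in this phase, and in 3.52% of the 15836 transcripts with at least 2 such introns they all were.

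Levels can be compared between genes only per length, here as CPM per kilobase of the reference transcript. LY6D, a surface protein of stratified epithelia and a marker of prostate progenitors, was the highest of the 10 in each library, at 150 CPM per kilobase in OLFM4-wild, 679 in OLFM4-knockout and 192 in the library labelled OLFM4-active. LY6E followed at 43.9, 51.9 and 48.4 CPM per kilobase, then LYPD3 at 35.2, 36.4 and 26.5. CD59 and LY6K came next and their counting intervals overlapped in OLFM4-wild, at 14.1 (13.5 to 14.7) and 14.0 (13.0 to 15.1). In the other libraries LY6K was above CD59, at 29.0 against 19.2 in OLFM4-knockout and 17.9 against 14.4 in the library labelled OLFM4-active. The lower part of the order was less resolved. In OLFM4-wild, neighbours among PSCA (4.65), PLAUR (4.30), SLURP1 (3.76) and LY6G6C (2.83) overlapped, and LYPD2 was last at 0.744. PLAUR was sixth and PSCA seventh in both other libraries. If the length of all annotated exons was used in place of the reference transcript, LYPD3 came before LY6E in OLFM4-wild and OLFM4-knockout, and SLURP1 took sixth place in OLFM4-wild.

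**Figure D1:**
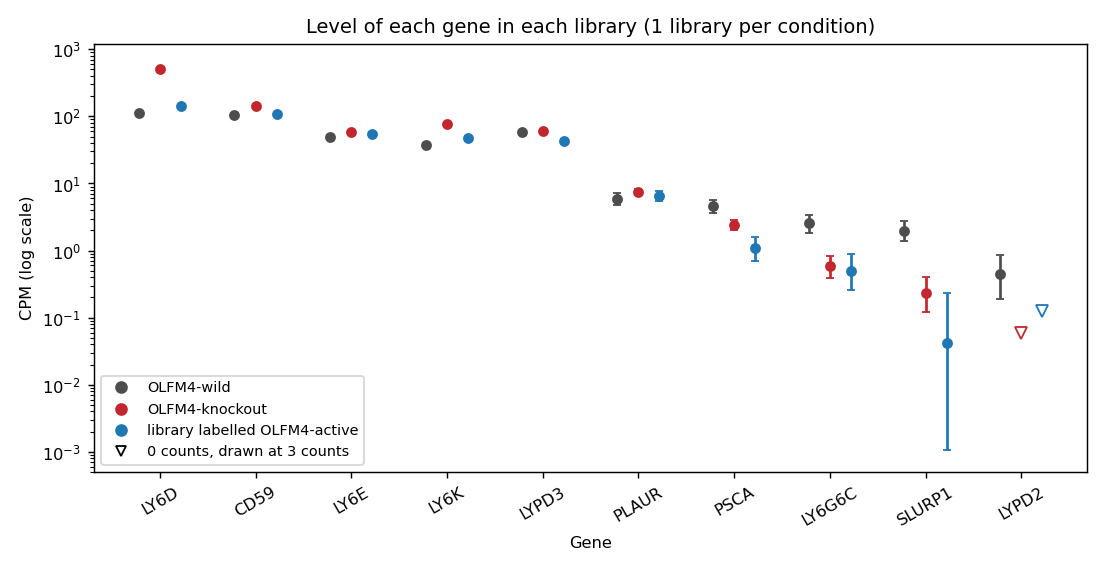
Level of each of the 10 genes in each library, in CPM on a log scale, with 1 point per library and bars for the exact 95% counting interval. Open triangles mark 0 counts and are drawn at the floor of 3 counts. LY6D in OLFM4-knockout stands at 508 CPM, above the 112 and 144 CPM of the other libraries, and SLURP1, LYPD2 and LY6G6C stand highest in OLFM4-wild.

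The study set OLFM4-knockout against OLFM4-wild cells, and OLFM4 reads remained in the knockout library, as given above. A gene was counted as higher or lower past a log2 fold change of 1, among genes with at least 10 counts over both libraries. In OLFM4-knockout against OLFM4-wild, LY6D and LY6K were higher, SLURP1 and LY6G6C were lower, and CD59, PLAUR, LY6E, LYPD3 and PSCA lay within the threshold. LYPD2 had fewer than 10 counts and was left out. So 2 of 9 tested genes (22.2%) were higher, where 8.08% of all 23083 tested genes were, and 2 of 9 (22.2%) were lower, where 14.8% of all were. The median log2 fold change of the 9 was 0.24, against 0.01 over all tested genes. With so few genes these shares are read as counts. In bulk RNA, fewer cells of a type and less RNA per cell cannot be told apart.

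LY6D had 2044 counts in OLFM4-wild, 26099 in OLFM4-knockout and 3434 in the library labelled OLFM4-active. These are 112 CPM (108 to 117), 508 CPM (502 to 515) and 144 CPM (139 to 149), so that the knockout library stood alone and the intervals of all 3 were apart. LY6D was 4.52-fold higher in OLFM4-knockout than in OLFM4-wild, a log2 fold change of 2.18 (2.11 to 2.24), and 374 of the 23083 tested genes had a larger one. With library totals in place of TMM the value was 1.82. The library labelled OLFM4-active was 0.35 above OLFM4-wild on the log2 scale (0.27 to 0.43). LY6D alone made up 29.6% of the family's counts in OLFM4-wild (28.6 to 30.7), 59.1% in OLFM4-knockout (58.7 to 59.6) and 35.3% in the library labelled OLFM4-active (34.4 to 36.3). The 10 genes summed to 379, 860 and 407 CPM in the same order, and without LY6D to 267, 351 and 263 CPM.

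LY6K, a GPI-anchored protein best known from testis and from squamous carcinomas, had 681, 3970 and 1141 counts in OLFM4-wild, OLFM4-knockout and the library labelled OLFM4-active. This gave 37.5, 77.3 and 47.8 CPM, again highest in OLFM4-knockout. Its log2 fold change in OLFM4-knockout against OLFM4-wild was 1.04 (0.93 to 1.16), with the threshold inside the interval, and 0.69 with library totals. In the library labelled OLFM4-active it was 0.35 (0.21 to 0.49). LY6K was thus past the threshold under TMM and not under totals.

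Several keratin markers of epithelial state were higher in OLFM4-knockout, as LY6D and LY6K were. Of the 6 basal markers, 3 were higher in OLFM4-knockout than in OLFM4-wild and 0 lower. These were KRT15 (359 against 127 CPM), KRT14 (log2 fold change 1.27) and KRT5 (1.15), while ITGA6 was at 0.92 and TP63 at 0.19. Among 7 club and hillock markers, KRT4 (1.92) and KRT13 (1.30) were higher and LCN2 was lower, 4 had enough counts, and the airway secretoglobins SCGB1A1 and SCGB3A1 were at 0. This list summed to 544 CPM in OLFM4-wild, 1682 in OLFM4-knockout and 324 in the library labelled OLFM4-active. With library totals KRT14, KRT5 and KRT13 were at 0.92, 0.79 and 0.95, so that 1 basal marker, KRT15, and 1 of the hillock keratins, KRT4, stayed past the threshold. KRT4 and KRT13 were at -0.74 and -0.71 in the library labelled OLFM4-active, where LY6D and LY6K were both at 0.35. The part of these cell states in the levels of LY6D and LY6K was not tested.

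SLURP1, a secreted ligand of epithelial nicotinic receptors whose loss causes a palmoplantar skin disease, had 36 counts in OLFM4-wild, 12 in OLFM4-knockout and 1 in the library labelled OLFM4-active. These correspond to 1.98 CPM (1.39 to 2.74), 0.234 CPM (0.121 to 0.408) and 0.0419 CPM (0.00106 to 0.233), and the wild library did not overlap the others. The log2 fold change against OLFM4-wild was -3.04 (-4.16 to -2.11) in OLFM4-knockout and -5.00 (-10.91 to -2.99) in the library labelled OLFM4-active, where it rests on 1 count. Of the 23083 genes tested in the first comparison, 343 had a lower value. LYPD2, a close relative and neighbour of SLURP1, had 8 counts in OLFM4-wild, or 0.440 CPM (0.190 to 0.868), and 0 in both other libraries. Taking the 8 counts as measured, and the floor of 3 counts elsewhere, its level in OLFM4-wild was at least 7.53-fold higher than in OLFM4-knockout and at least 3.51-fold higher than in the library labelled OLFM4-active. With the counting error of the 8 counts included, the 95% limits of the ratio nearest to no difference were lower, at 4.82-fold and 2.24-fold.

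LY6G6C, a GPI-anchored member encoded in the major histocompatibility complex, had 46, 30 and 12 counts in OLFM4-wild, OLFM4-knockout and the library labelled OLFM4-active. Its level was 2.53 CPM (1.85 to 3.38) in OLFM4-wild against 0.584 (0.394 to 0.834) and 0.502 (0.260 to 0.877), so the last 2 overlapped each other and not the first. The log2 fold changes against OLFM4-wild were -2.11 (-2.83 to -1.42) and -2.29 (-3.39 to -1.39). PSCA, prostate stem cell antigen, had 83, 125 and 26 counts, or 4.57 CPM (3.64 to 5.66), 2.44 CPM (2.03 to 2.90) and 1.09 CPM (0.711 to 1.59). It was highest in OLFM4-wild and lowest in the library labelled OLFM4-active, with no overlap between the 3 intervals. PSCA was at -0.91 (-1.32 to -0.49) in OLFM4-knockout, inside the threshold with TMM and past it with totals (-1.26), and at -2.05 (-2.76 to -1.42) in the library labelled OLFM4-active.

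Promoter sequences from RefSeq, on GRCh38.p14, were at hand for 4 of the 10 genes, LYPD3, PLAUR, CD59 and LY6G6C. The 250 bases before the start of transcription are shown for LY6G6C, whose level was lower than in OLFM4-wild cells in both other libraries, and for LYPD3, whose level stayed within a log2 fold change of 1 in every comparison. Both are read on the minus strand, at chr6:31721747-31721996 and chr19:43465609-43465858, upstream of any annotated exon of the gene. Capitals mark matches, on either strand, to an AP-1 site (TGANTCA), a GC box (GGGCGG), an E box (CACGTG) or a TATA box (TATAAA).
LY6G6C: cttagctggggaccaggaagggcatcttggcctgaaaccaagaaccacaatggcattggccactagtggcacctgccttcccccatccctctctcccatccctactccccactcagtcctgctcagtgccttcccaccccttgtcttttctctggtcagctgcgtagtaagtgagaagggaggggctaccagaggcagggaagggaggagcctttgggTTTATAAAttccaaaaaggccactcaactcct
LYPD3: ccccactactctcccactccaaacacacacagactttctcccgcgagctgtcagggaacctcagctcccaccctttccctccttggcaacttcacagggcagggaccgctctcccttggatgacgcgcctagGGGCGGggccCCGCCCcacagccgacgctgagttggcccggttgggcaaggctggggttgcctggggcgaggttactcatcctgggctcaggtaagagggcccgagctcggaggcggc
The LY6G6C promoter held a pair of overlapping TATA box matches on opposite strands, from base 32 to base 25 before the start, and no GC box. LYPD3 had 2 GC box matches, at 118 to 113 and 108 to 103 bases before the start, and no TATA box. CD59 also had 2 GC box matches, 60 to 55 and 47 to 42 bases before its start, and PLAUR had an AP-1 match 186 to 180 bases before its own. The whole PLAUR window and 56 bases of the CD59 window lie in annotated exons of other transcripts of these genes, so they are not shown. Among the 35116 promoters in the table, 10.7% held the TATA box, 42.6% the GC box, 6.57% the AP-1 site and 6.34% the E box in windows of this length. The LY6G6C window had 55.6% G and C with 1 CpG, whereas those of LYPD3, PLAUR and CD59 had 66.4%, 63.2% and 70.4% with 14, 13 and 18 CpG. A median promoter in the table had 58% and 11. These matches describe the letters and do not show that a factor was bound.

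Most squamous differentiation markers that could be tested were lower in the same libraries as these low genes. Of the 15 markers, 14 could be tested in OLFM4-knockout against OLFM4-wild, 9 were lower and 1 was higher (11 and 0 with library totals). The lower ones included FLG (log2 fold change -5.01), which encodes the cornified-layer protein filaggrin, DSC1 (-4.37), a desmosomal cadherin, SBSN (-3.36) and KRT1 (-2.53). The higher one was TGM1, at 1.04 with TMM and 0.68 with totals. KRT10, with 1217 CPM in OLFM4-wild and 1331 in OLFM4-knockout, was at 0.13. In the library labelled OLFM4-active 11 of 15 were lower and 0 higher, with FLG at -4.88 and KRT1 at -1.75. The list summed to 2568 CPM in OLFM4-wild, 2015 in OLFM4-knockout and 1357 in the library labelled OLFM4-active, and no marker was at 0 in all libraries. Its part in the levels of SLURP1, LYPD2, LY6G6C and PSCA was not tested.

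The library labelled OLFM4-active was compared with the same OLFM4-wild library, so both comparisons share it and are set side by side, not counted as independent. Among the 9 tested members, 0 were higher, where 6.66% of the 21811 tested genes were, and 3 (33.3%) were lower, SLURP1, LY6G6C and PSCA, where 12.3% were. The 6 others lay between -0.41 for LYPD3 and 0.35 for LY6D, and the median of the 9 was 0.04. Where OLFM4-knockout was compared with the library labelled OLFM4-active, 3 of 9 members (33.3%) were higher, LY6D, PSCA and SLURP1, where 6.88% of 23043 tested genes were. The interval of SLURP1 in that comparison ran from -0.28 to 7.90 around 1.96, so that a difference was not detectable at this depth, whereas LY6D was at 1.82 (1.77 to 1.87) and PSCA at 1.14 (0.54 to 1.83), or 0.90 with library totals, which ended its call. Members lower in OLFM4-knockout numbered 0 there, where 8.93% of tested genes were.

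**Figure D2:**
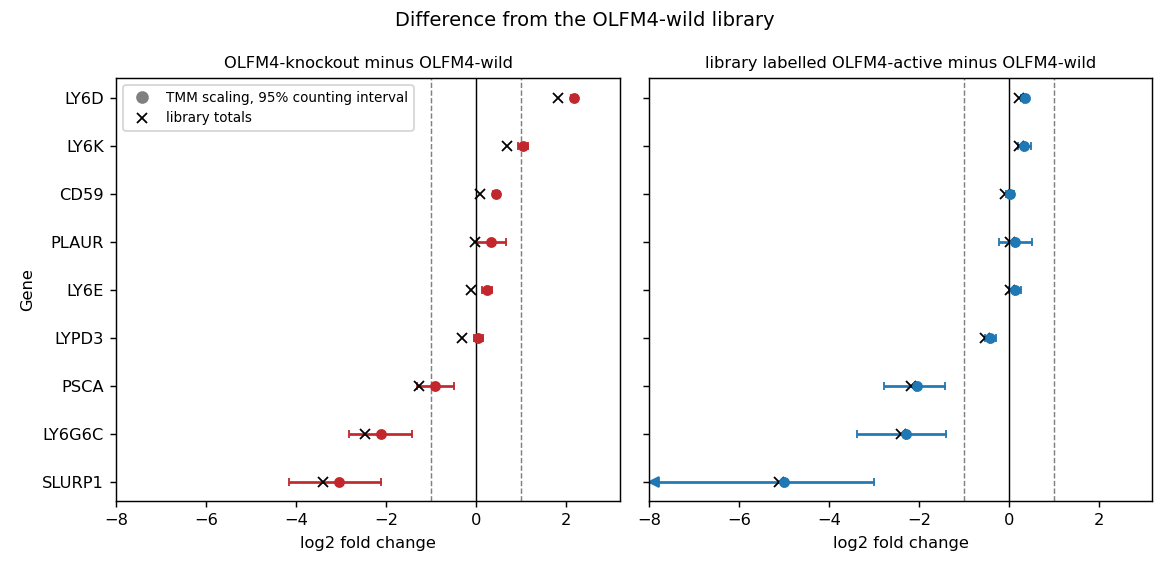
Log2 fold change of the 9 genes with at least 10 counts against OLFM4-wild, on the left for OLFM4-knockout and on the right for the library labelled OLFM4-active. Dots with bars give TMM values with 95% counting intervals, crosses give library totals, dashed lines mark 1 and -1, and the arrowhead shows an interval that runs past the axis. LY6D and LY6K lie above 1 on the left, at 2.18 and 1.04, and SLURP1 and LY6G6C lie below -1 on both sides.

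The receptors and inhibitors with the steadiest levels were CD59, LY6E, LYPD3 and PLAUR. CD59, which blocks assembly of the complement membrane attack complex, had 1937, 7441 and 2611 counts in OLFM4-wild, OLFM4-knockout and the library labelled OLFM4-active, or 107, 145 and 109 CPM. Its log2 fold change was 0.44 (0.37 to 0.52) in OLFM4-knockout, 0.09 with totals, and 0.04 (-0.05 to 0.12) in the library labelled OLFM4-active. The other membrane regulators of complement were close to it in OLFM4-knockout, CD55 at 0.43 and CD46 at 0.31, and at 0.26 and 0.30 in the library labelled OLFM4-active. C3, the central complement component, was lower, at -1.46 and -2.51. With totals CD55 and CD46 were at 0.07 and -0.04 in OLFM4-knockout. Of 18 complement genes, 7 had enough counts in the first comparison, 1 was higher (CFI) and 1 lower (C3). CFI had 0 counts in OLFM4-wild and 13 in OLFM4-knockout, so it entered only through the deeper library. Another 7, C4BPA, C4BPB, C6, C7, C8A, C8B and C9, were at 0 in all libraries.

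PLAUR, the urokinase receptor that focuses plasminogen activation at the cell surface, had 107, 383 and 155 counts, or 5.89 CPM (4.83 to 7.12), 7.46 CPM (6.73 to 8.25) and 6.49 CPM (5.51 to 7.59), and all 3 intervals overlapped. Its log2 fold change in OLFM4-knockout was 0.34 (0.03 to 0.66), but -0.02 with totals, so its direction depended on the scaling. The ligand PLAU was at 0.25 (0.16 to 0.35) in OLFM4-knockout, -0.10 with totals, and at -0.55 (-0.67 to -0.43) in the library labelled OLFM4-active. The inhibitor SERPINB2, with 18.0 CPM in OLFM4-wild, had 36.1 CPM in OLFM4-knockout (log2 interval 0.83 to 1.18) and 22.6 CPM in the library labelled OLFM4-active. SERPINE2 was at -1.23 and -0.61, and the integrin partner ITGA3 at 0.90 and 0.92. Of 22 genes of the urokinase system, 19 were tested in both comparisons. In OLFM4-knockout 3 were higher and 3 lower, where 8.08% and 14.8% of all tested genes were. In the library labelled OLFM4-active 3 were higher and 1 lower, where 6.66% and 12.3% of all were. With totals, 0 genes of the list were higher in OLFM4-knockout, and SERPINB2 was at 0.65 in OLFM4-knockout.

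LYPD3, an adhesion protein of stratified epithelia, had 1049, 3068 and 1038 counts, or 57.7, 59.8 and 43.4 CPM, lowest in the library labelled OLFM4-active. It was at 0.05 (-0.05 to 0.15) in OLFM4-knockout, -0.30 with totals, and at -0.41 (-0.54 to -0.29) in the library labelled OLFM4-active. Of its 6 listed ligands 5 were tested, and 1, the secreted disulfide isomerase AGR2, was lower in both comparisons. LAMB3, a chain of a basement membrane laminin, was at 0.91 and 0.32, LAMA3 at 0.15 and 0.29, and the lectin LGALS3 at 0.09 and 0.01. With totals these 3 were at 0.55, -0.20 and -0.26 in OLFM4-knockout.

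LY6E, an interferon-inducible member that limits entry of some viruses into cells, had 903, 3014 and 1309 counts, or 49.7, 58.7 and 54.8 CPM. Its log2 fold change was 0.24 (0.13 to 0.35) in OLFM4-knockout, -0.11 with totals, and 0.14 (0.02 to 0.26) in the library labelled OLFM4-active. Of 26 interferon-stimulated genes, 17 were lower in OLFM4-knockout and 20 in the library labelled OLFM4-active, with 0 higher in either, and the list summed to 1203, 536 and 439 CPM. MX1 was at -2.64 and -3.24, OAS2 at -3.10 and -3.49, OAS1 at -2.37 and -2.68, and XAF1 at -2.60 and -2.34. LY6E was not among the genes that were lower. Of the 26 listed genes, 9 in OLFM4-knockout and 6 in the library labelled OLFM4-active also lay within the threshold.

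Genes that lie among the chromosome 8 members did not share a direction. The stretch of 354 kb from PSCA to LY6E holds 20 genes of the table, 6 of them members. Among the 14 others, 5 reached a mean of 1 CPM. LYNX1, an LU domain gene that acts on nicotinic receptors in the brain and lies between LYPD2 and LY6D, had 198, 138 and 36 counts and was lower in both comparisons, at -2.02 (-2.34 to -1.70) and -2.84 (-3.41 to -2.34). Next to it LY6D was at 2.18. THEM6, between LY6K and SLURP1, was at 0.51 in OLFM4-knockout and -0.76 in the library labelled OLFM4-active, and the lncRNA ENSG00000253806 beside it was at 0.98 and -1.01. From PSCA to LY6D, low and high values thus lay beside each other along the stretch in OLFM4-knockout.

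**Figure D3:**
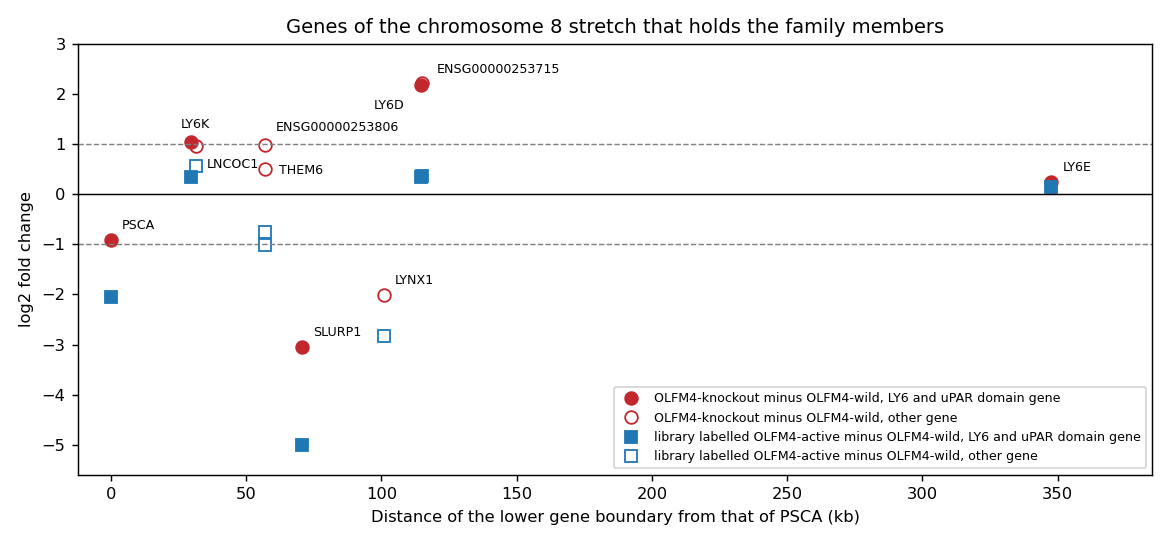
Log2 fold change against OLFM4-wild for genes of the chromosome 8 stretch, plotted by distance in kb from the lower boundary of PSCA. Circles give OLFM4-knockout and squares the library labelled OLFM4-active, filled for members with at least 10 counts and open for others whose mean reached 1 CPM. SLURP1 and LYNX1 lie low in both, at -3.04 and -2.02 in OLFM4-knockout, while LY6D lies at 2.18 close by.

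Several members overlap a gene on the other strand, and the counting was stranded. ENSG00000253715, a lncRNA on the plus strand from 142785374 to 142812120, shares 216 of its 602 exonic bases with LY6D. It had 733, 9602 and 1248 counts in OLFM4-wild, OLFM4-knockout and the library labelled OLFM4-active, which is 35.9 (32.9 to 39.0), 36.8 (35.9 to 37.7) and 36.3 (34.0 to 38.8) per 100 LY6D counts. The 3 intervals of this ratio overlapped, and the log2 fold change of the lncRNA in OLFM4-knockout was 2.21 beside 2.18 for LY6D. LNCOC1 overlaps LY6K by 3271 exonic bases and had 376, 2065 and 736 counts, or 55.2 (48.6 to 62.7), 52.0 (49.3 to 54.9) and 64.5 (58.7 to 70.8) per 100 LY6K counts. Here the last library lay above OLFM4-knockout. PSCA shares 367 exonic bases with JRK, whose counts of 636, 1455 and 657 were 766, 1164 and 2527 per 100 PSCA counts. MPIG6B, which shares 36 exonic bases with LY6G6C, had 14, 15 and 13 counts. LY6E shares 88 exonic bases with LY6E-DT, which had 4, 16 and 10 counts, under 1 per 100 LY6E counts in each library. Whether reads on the strand of a neighbour reached any member's count, or reads of a member a neighbour's count, was not tested.

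**Figure D4:**
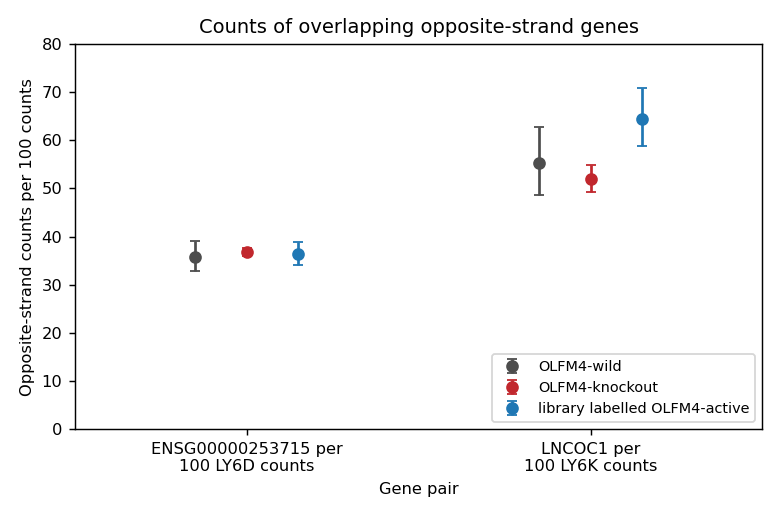
Counts of the overlapping opposite-strand lncRNA per 100 counts of LY6D or LY6K, by library, with exact 95% intervals. The LY6D pair lies between 35.9 and 36.8 in all 3 libraries, and the LY6K pair between 52.0 and 64.5.

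The other LU domain genes that were listed were mostly low or absent. Of 24 relatives, 23 had a row and SLURP2 did not, so its reads could not be followed. Of those with a row, 4 were at 0 in every library (GML, LY6H, LY6L and LYPD4). In OLFM4-knockout against OLFM4-wild 10 were tested. Of these 10, 1 was higher and 5 were lower, with a median of -1.11, or 0 and 7 with library totals. Over all tested genes, 8.08% were higher and 14.8% lower with TMM, and totals put their median at -0.34. In the library labelled OLFM4-active 0 relatives were higher and 6 lower, with a median of -1.31, where 6.66% and 12.3% of all tested genes were. LYPD1 was at 1.06 (0.67 to 1.49) in OLFM4-knockout, 0.71 with totals, and -0.11 in the library labelled OLFM4-active. LYPD6, a modulator of WNT signalling, was at -1.33 (-1.54 to -1.11) and -1.46, and PINLYP at -1.97 and -2.05. LYPD5 was at -0.89 and -1.15, LYPD6B at -0.48 and -0.42, and LY6G5B at -0.44 and 0.41. The relatives together summed to 52.2 CPM in OLFM4-wild, 28.2 in OLFM4-knockout and 24.9 in the library labelled OLFM4-active, well under the 379 to 860 CPM of the 10 members.

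**Figure D5:**
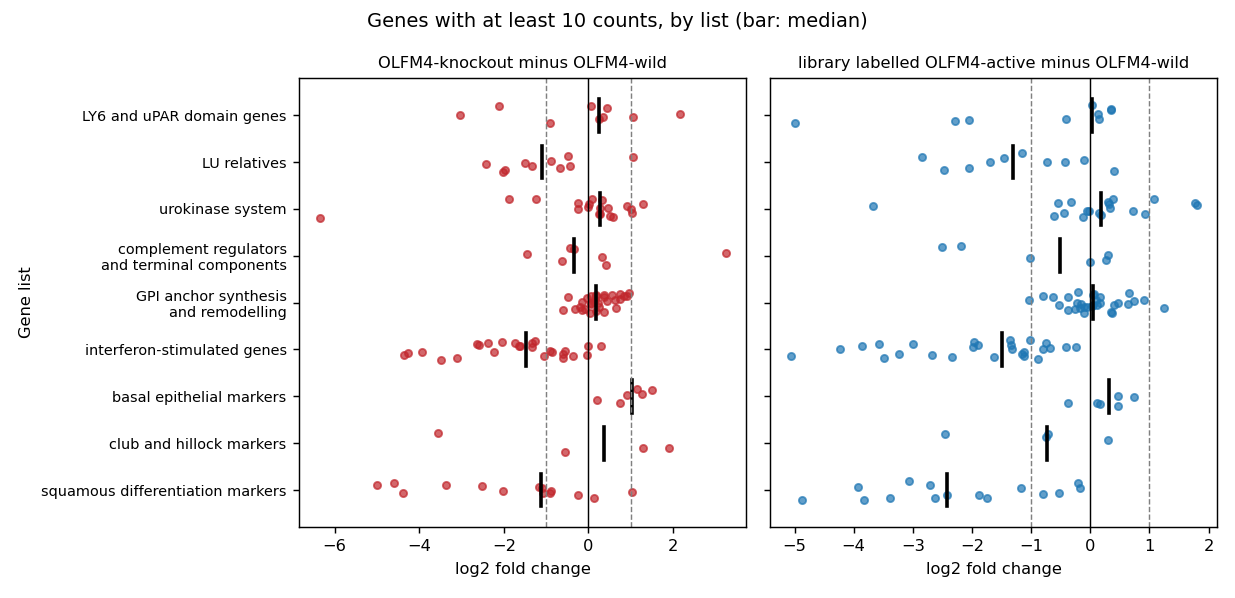
Log2 fold change against OLFM4-wild of each tested gene in the family and in 8 of the lists, with OLFM4-knockout on the left and the library labelled OLFM4-active on the right. Each dot is a gene with at least 10 counts over both libraries, and the bar is the list's median. The family is spread from -3.04 to 2.18 on the left with a median of 0.24, whereas the interferon-stimulated genes centre on -1.48 and the basal markers on 1.03.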

How the data were processed

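RNA of 3 RWPE1 libraries, 1 per condition, was prepared as stranded total RNA depleted of ribosomal RNA. The submitters' processing notes name cutadapt. According to the methods of the study, the authors aligned reads with HISAT2 to GRCh38. With featureCounts they counted read pairs that mapped to a single place, taken as reversely stranded, and they deposited the raw counts. Each column of the table named its library, and 0 columns were left unused. Positions came from GENCODE version 44, which matched 98.2% of the 58037 genes and is not necessarily the release used for counting, so exon overlaps are those of version 44.

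CPM used TMM factors from edgeR 4.0.16, in R 4.3.3, and log2 CPM followed voom with an offset of 0.5 counts. Genes needed 10 counts over the 2 libraries compared, and a log2 fold change past 1 was counted. Intervals are Clopper-Pearson intervals, conditional on the summed count for fold changes, at 95%, computed with scipy 1.17.1 in Python 3.11.15. PCR duplicates had no molecular identifiers, so intervals and floors cover counting error only. Alternatives were library totals, size factors of DESeq2 1.42.0, upper quartile factors, offsets of 1 and 5 counts, other filters and thresholds, thinning to 16309906 counts, and library sizes without the 10 most abundant genes. Simulated libraries with known fold changes, drawn with counting error only and with given library sizes, were used to check fold changes and intervals. They did not check the scaling between libraries.

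The members and the 15 gene lists were chosen with earlier results of these data known. Besides the members and OLFM4, the text names per list up to 4 genes with the largest knockout log2 fold change at a mean of at least 10 CPM, PLAU, SERPINB2, CD46, CD55, the LU relatives at a mean of at least 1 CPM and the genes of the chromosome 8 stretch at that level. A few genes that the rule takes in are not reported here. CFI, AGR2, LCN2, TGM1, KRT10, TP63, CHRNA2, CHRNA7, CHRNA9, CHRND, PIGC, PIGW and genes at 0 fall outside this rule. They were named after their values were seen, as were JRK, MPIG6B and LY6E-DT, which overlap a member. SLURP2 is named only because it had no row.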

Additional observations from a re-analysis of the deposited data

How the results depend on the processing

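Of the 66 counts of members recomputed over 11 alternatives, 58 stayed within 1.5 times the main count. These include counts that were 0 in the main setting and in all 11 alternatives. They were members higher in the library labelled OLFM4-active than in OLFM4-wild, and members lower in OLFM4-knockout than in the library labelled OLFM4-active. The count of members higher in OLFM4-knockout than in OLFM4-wild, 2 in the main setting, went to 1 with library totals, with upper quartile factors, with a log2 fold change past 2 and with the interval wholly past 1, and LY6D was the gene left each time. Members lower in that comparison went from 2 to 1 with a mean of at least 1 CPM, which left SLURP1 out. Their number went to 3, which is within 1.5 times, with library totals, which added PSCA, and without a count filter, which added LYPD2. Between OLFM4-knockout and the library labelled OLFM4-active, the 3 higher members went to 1 with an offset of 5 counts and with the interval wholly past 1, leaving LY6D, and to 0 with a log2 fold change past 2. Of 27 log2 fold changes of members, 20 kept their sign under all 7 alternatives and the 7 others were under 0.35 in size. Those were LY6E, LYPD3 and PLAUR in OLFM4-knockout against OLFM4-wild, CD59 against OLFM4-wild in the library labelled OLFM4-active, and LY6E, PLAUR and LY6G6C between OLFM4-knockout and the library labelled OLFM4-active. All 7 changed sign with library totals, whose shift of 0.11 to 0.35 on the log2 scale exceeds each of them. SLURP1 in the last comparison ranged from 0.40 to 3.41, since it rests on 1 count. No replicate could be left out, and no paired analysis was possible because there was 1 library per condition.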

Other observations

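The machinery that makes and remodels GPI anchors, on which most of the family depends for its place at the membrane, was expressed throughout. All 31 listed genes had enough counts in each comparison. In OLFM4-knockout against OLFM4-wild 0 were past a log2 fold change of 1 in either direction, and the median was 0.18 under TMM but -0.18 under library totals. GPAA1, a subunit of the transamidase that attaches the anchor, was at 0.96 (0.85 to 1.06), PIGM at 0.90 (0.63 to 1.19), PIGH at 0.74 (0.48 to 1.02) and DPM1, a subunit of dolichol phosphate mannose synthase, at 0.65 (0.55 to 0.74). In the library labelled OLFM4-active 1 gene was higher (PIGW) and 1 lower (PIGC), with a median of 0.04. The list summed to 787 CPM in OLFM4-wild, 946 in OLFM4-knockout and 811 in the library labelled OLFM4-active.

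Subunits of nicotinic acetylcholine receptors, the targets of SLURP1 and LYNX1, were low. The 16 listed genes summed to 29.2 CPM in OLFM4-wild, 30.7 in OLFM4-knockout and 24.4 in the library labelled OLFM4-active, and CHRNA1, CHRNA6 and CHRNB3 were at 0 in all libraries. In OLFM4-knockout against OLFM4-wild 9 had at least 10 counts, with a median of 0.27 under TMM but -0.08 under totals. CHRNA2 had 0 counts in OLFM4-wild and 20 in OLFM4-knockout, and CHRNA9 had 0 and 22, so both entered only through the deeper library. CHRNA7, with 6 and 0 counts, and CHRND, with 5 and 0, were too low to enter.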
